A study of Sus scrofa with 24 samples.

Results

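The spleens of 180-day-old Meishan pigs (180d) were compared with those of pigs 1 day after birth (1d), using all 3000 circRNAs of the deposited count table and 3 libraries a side, 6 of the 24 libraries of the series. Meishan is a Chinese indigenous breed of Sus scrofa. Each library came from the spleen tissue of 1 pig, with 3 pigs a stage, so the stages were compared between different animals. The p-values rest on the spread between pigs within a stage, estimated in 1 fit of all 24 libraries and not from these 6 alone. All pigs were healthy, without treatment, and shared diet and housing, and the labels give no sex. The changed circRNAs were grouped by the function of their host genes, and circRNAs of 1 host gene that moved apart were sought. The libraries of 180d held 37023, 57890 and 55129 back-splice reads, and those of 1d held 16273, 20930 and 23752. The spleens of 180d replicates 2 and 3 gave libraries with a share of valid bases under 0.96 after trimming, and the other 4 libraries were at or above it.

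A circRNA forms when the spliceosome joins the end of an exon to the start of the same or an earlier exon of the same transcript, so that the exons between close into a ring without free ends. Such rings are resistant to exonucleases and can outlast the linear RNA of their host gene, and 1 gene can give several rings that differ in their exons. The spleen makes blood cells around birth in many mammals, filters old red cells through its macrophages, and holds lymphocytes in its white pulp, which grows after birth. The table counts reads across the back-splice junction, so it measures circRNAs of a host gene and not its linear RNA. For 10 genes that define spleen cells, among them CD79A, CD3E and CD163, 0 had a circRNA in the table, so the tissue could not be checked against them. In bulk tissue, fewer cells of a type and less RNA per cell cannot be told apart.

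Of the 3000 circRNAs, 2842 joined exon ends of 1 annotated gene and were assigned to 1670 host genes, and 612 of these genes had at least 2 circRNAs. What identifies a circRNA in the reads is its junction, and some junctions of the results below are printed from the Sscrofa11.1 reference genome as 30 bases of the RNA strand, 15 from the end of the last exon in lower case and 15 from the start of the first exon in capitals. The first set are circRNAs that rose at 180d, from CD96, a receptor of T cells and natural killer cells (chr13:148164225-148168420, minus strand), EPSTI1, an interferon-induced gene in human cells (chr11:24138266-24146998 and chr11:24156582-24188050, plus strand), HERC6, a ubiquitin ligase gene (chr8:130598412-130600711 and chr8:130602052-130603903, minus strand), BANK1, a B cell scaffold protein (chr8:118986952-118997791, minus strand), and CTSS, which encodes cathepsin S (chr4:98422323-98423402, plus strand).
CD96 circRNA_11685: gatgtccttggaaagGAGGGTAATGGAACG
EPSTI1 circRNA_06645: attcagagagagaagCACAGGCGCATATAC
EPSTI1 circRNA_06656: gtacaacatcagaagAGCAATAAACTAGAG
HERC6 circRNA_36152: agaaaaaattcctctATATACTGGGACAAA
HERC6 circRNA_36156: ggcctgtgtttttctCCTACACGTGGGAAG
BANK1 circRNA_36034: tttgaggagttttccAATGACATTGATGGA
CTSS circRNA_26897: gaagtgaaataccagAATGAGGAAGTAGCA

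The second set show how circRNAs of 1 host gene can share an end. The 2 circRNAs of MCM6, a subunit of the replicative helicase (chr15:15928996-15936972 and chr15:15928996-15941387, plus strand), and the 3 of CCT3, a subunit of the cytosolic chaperonin (chr4:93738637-93747422, chr4:93738637-93749340 and chr4:93738637-93750841, plus strand), fell together, and their junctions within a gene share the capitals and differ before them. The 2 circRNAs of WDR7, a WD repeat protein of vesicle traffic (chr1:106150521-106167768 and chr1:106150521-106171073, plus strand), share their capitals as well, and 1 of them moved apart from the other. ZNF644, a zinc finger gene (chr4:125831440-125835266, plus strand), gave the ring of exons 6 to 7 that fell while another of the gene rose.
MCM6 circRNA_15204: ttcctactatacatgATTCCAGAACAGCGA
MCM6 circRNA_15205: gagccagtttctcaaATTCCAGAACAGCGA
CCT3 circRNA_26742: aaaggagaaagccagATTCAAGTACAGCAT
CCT3 circRNA_26744: taatcgcattgctagATTCAAGTACAGCAT
CCT3 circRNA_26745: aaagagattctctcgATTCAAGTACAGCAT
WDR7 circRNA_01405: gatcgatgcttggagGCCACCTAGACCAAG
WDR7 circRNA_01406: accacgtcatatcacGCCACCTAGACCAAG
ZNF644 circRNA_27510: tcactatgcactcagACTAGATGTGTTAAA

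At 180d, 177 circRNAs were higher than at 1d (5.9% of the 3000) and 102 were lower (3.4%), together 9.3%. A circRNA was called when the adjusted p of edgeR's quasi-likelihood test (two-sided, Benjamini-Hochberg over the 3000) was under 0.05 and the change at least 2-fold, and 306 passed the p alone. The median log2 fold change of 180d over 1d was 2.18 among the circRNAs that rose and -2.06 among those that fell. Every library of 180d lay above every library of 1d for 175 of the 177, and below for 95 of the 102, whereas of all 3000 circRNAs 17.9% lay wholly above and 11.5% wholly below. Of the circRNAs that rose, 42 were listed at 0 in the 3 libraries of 1d, and of those that fell, 4 were listed at 0 in the 3 libraries of 180d. Over all 3000 circRNAs, 68 were listed at 0 in the 3 libraries of 1d, which held fewer reads, and 5 in those of 180d. Values below are TMM-scaled (normalised) counts, in which 1 read was worth 0.719 to 1.07 at 180d and 1.51 to 1.99 at 1d. Where a stage was listed at 0 throughout, the fold change is a bound against a floor of 7 counts over its 3 libraries, which covers counting error only. With such circRNAs set to their bounds, the medians were 1.60 among those that rose, -2.0 among those that fell and 0.17 over all.

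**Figure D1:**
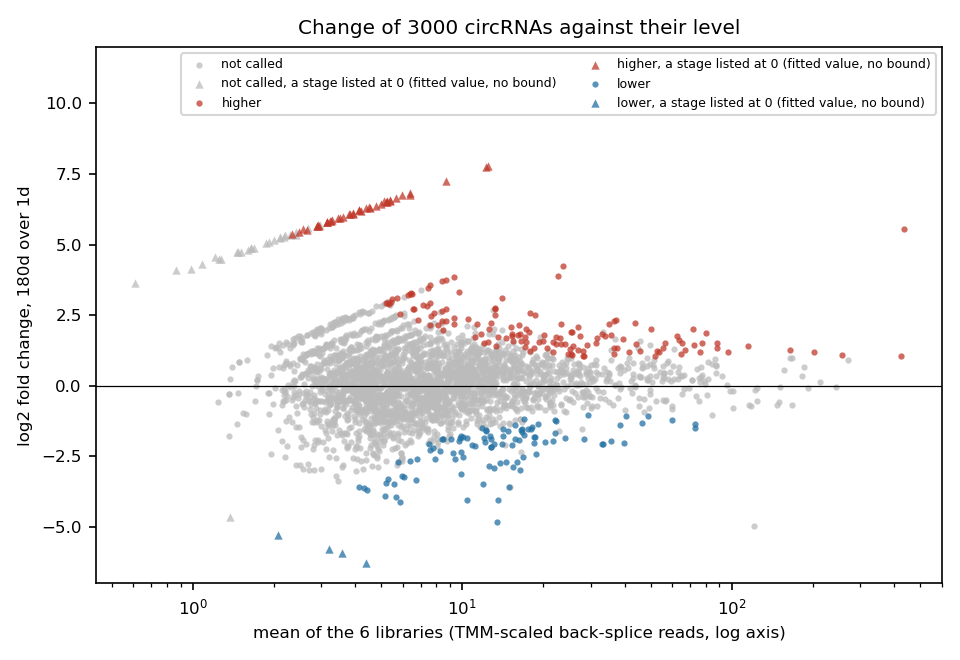
Log2 fold change of 180d over 1d (y axis) against the mean normalised count of the 6 libraries on a log axis (x axis), 1 point per circRNA, with colour for the call and triangles for circRNAs listed at 0 in the 3 libraries of a stage, whose fitted change is no bound. The 177 circRNAs called higher and the 102 called lower spread over the whole range of levels.

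The fold changes are relative to the TMM scaling, under which the median circRNA had a log2 fold change of 0.20. That median was 0.13 with DESeq2 size factors, -0.05 with the table totals and 1.27 with clean reads as the depth, and so the split of the calls moved with the scale. Circular RNAs higher at 180d were 63.44% of those called with TMM, 42.58% with table totals, 97.62% with clean reads, 52.22% with DESeq2's Wald test, 72% when the 6 libraries alone were fitted, 43.06% when all libraries were thinned to the lowest total and 71.38% without 1d replicate 3.

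Among host genes of the interferon response and innate RNA sensing, 7 of 16 circRNAs rose (43.8%, against 5.9% of all) and 0 fell. Interferons make cells transcribe antiviral genes, whose products bind foreign RNA, block its translation or modify proteins. The 16 circRNAs of 12 genes had a median log2 fold change of 1.90, against 0.20 for all, and 13 were positive. With the 3 circRNAs that were listed at 0 at 1d set to their bounds, the median was 1.22. Their summed normalised counts were 165 to 245 at 180d and 54.3 to 76.8 at 1d, with no overlap of the stages. The 7 belonged to HERC6, EIF2AK2, PARP14, ZNFX1 and DDX58.

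HERC6, a ligase that in mice attaches the interferon-induced modifier ISG15, had circRNAs of exons 20 to 22 and of exons 18 to 19. The first, circRNA_36152, had 27.8, 30.2 and 34.5 normalised counts at 180d and 3.98, 4.94 and 6.03 at 1d, a log2 fold change of 2.58 (SE 0.53, adjusted p = 0.00055 from edgeR). The second, circRNA_36156, had 8.54, 23.0 and 6.75 at 180d and was listed at 0 in all libraries of 1d, at least 3.39-fold higher in the older pigs (adjusted p = 0.00181 from edgeR). Both were higher in every pig of 180d, and the junction of each lies in coding sequence. PARP14, an ADP-ribosyltransferase (chr13:137852621-137859040, exons 2 to 4), had 8.54, 13.7 and 9.0 at 180d for circRNA_11507 and was listed at 0 at 1d, at least 2.70-fold higher in the older pigs (adjusted p = 0.00338 from edgeR). ZNFX1, a helicase that senses viral RNA, had 42.7, 69.0 and 33.7 at 180d for circRNA_19169 and 9.95, 19.8 and 15.1 at 1d, a log2 fold change of 1.68 (SE 0.39, adjusted p = 0.0033 from edgeR). The stages did not overlap for either.

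DDX58, which encodes the RNA sensor RIG-I, and EIF2AK2, which encodes the RNA-activated kinase PKR, lay outside the naming rule and were chosen after their values were seen. DDX58 circRNA_05171 had 7.47, 25.2 and 15 normalised counts at 180d and 0, 0 and 3.01 at 1d, a log2 fold change of 3.73 (SE 1.10, adjusted p = 0.0209 from edgeR). EIF2AK2 circRNA_24923 had 5.34, 13.7 and 3.75 at 180d, was listed at 0 at 1d and was at least 2.01-fold higher (adjusted p = 0.0067). EIF2AK2 circRNA_24935 had 7.47, 12.2 and 18.7 at 180d and 5.97, 0 and 0 at 1d, a log2 fold change of 2.84 (SE 0.88, adjusted p = 0.0257). The stages were apart for these 3 as well, and their values at 1d rest on 0 to 3 reads a library. Of the 7 calls of the list, 4 passed without 180d replicate 2 and 5 without 1d replicate 2, 2 passed after thinning, and 0 passed with 180d replicate 1 as the only library of its stage.

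EPSTI1 is also induced by interferon in human cells but was in none of the lists, and its 2 circRNAs were among the 12 largest rises. The ring of exons 2 to 5, circRNA_06645, had 13.9, 41.7 and 18.0 normalised counts at 180d and was listed at 0 throughout 1d, at least 6.57-fold higher in the older pigs (adjusted p = 1.5e-05 from edgeR). Exons 6 to 8 gave circRNA_06656, which had 53.4, 49.6 and 31.5 at 180d and 3.98, 3.29 and 0 at 1d, a log2 fold change of 4.23 (SE 1.14, adjusted p = 0.0238 from edgeR). The 2 rings do not share an exon. Both were higher in every pig of 180d, which the rule for the largest rises required. The call of the second was lost without any 1 library of 1d or without 180d replicate 2, at log2 fold changes of 3.63 to 4.72 (adjusted p = 0.0578 to 0.0749 from edgeR).

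**Figure D2:**
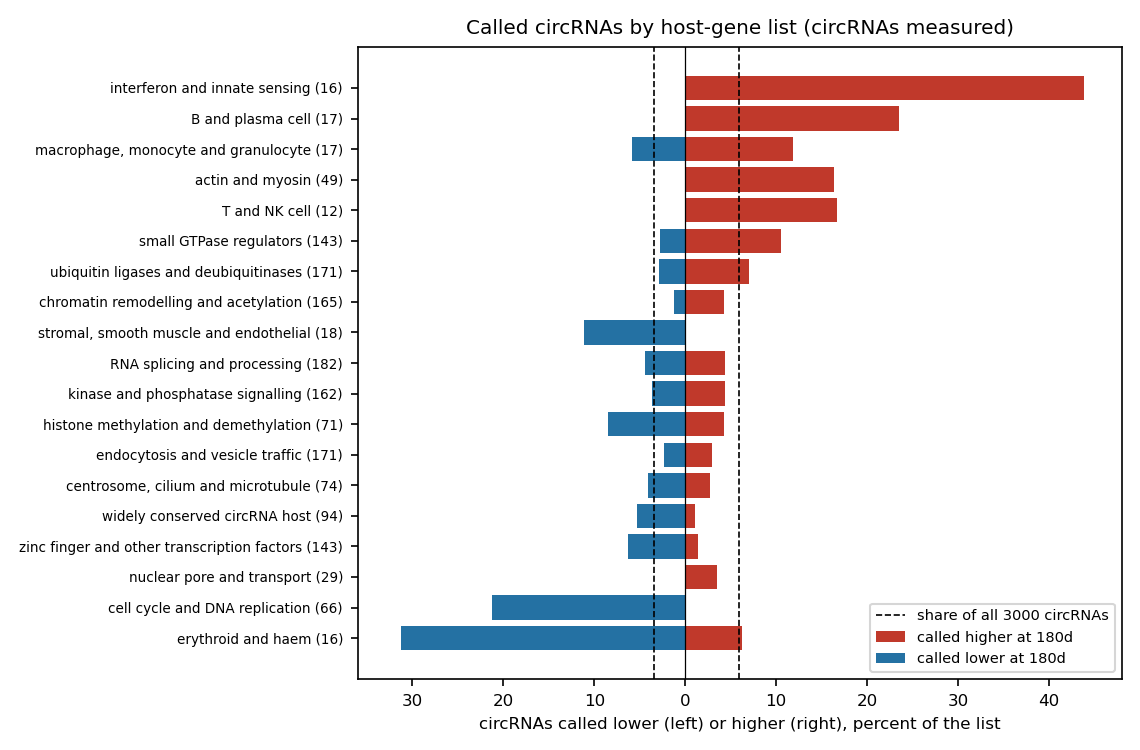
Share of circRNAs called lower (left) and higher (right) at 180d than at 1d in percent (x axis) for each function list with at least 10 circRNAs (y axis), with dashed lines at the shares of all 3000, 5.9% higher and 3.4% lower. Interferon and innate sensing reach 43.8% higher, and the cell cycle and erythroid lists reach 21.2% and 31.2% lower.

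The 2 lists of lymphocyte host genes had circRNAs that were called higher and 0 that were called lower, though members of both lists had negative changes. In the B and plasma cell list 4 of 17 circRNAs rose (23.5%, against 5.9% of all, with a median log2 fold change of 0.96). In the T and NK cell list 2 of 12 rose (16.7%, median 0.49). The log2 fold change was positive for 12 and negative for 5 in the B and plasma cell list. It was positive for 8 and negative for 4 in the T and NK cell list. Summed over the list, B and plasma cell circRNAs had 171 to 234 normalised counts at 180d and 102 to 152 at 1d. Summed T and NK cell circRNAs had 138 to 154 at 180d and 69.7 to 84.4 at 1d. The defining genes CD79A, MS4A1 and CD3E have no circRNA in the table, so the part of cell numbers in these changes was not tested.

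CD96 circRNA_11685 of exons 4 to 5 had 34.2, 48.2 and 45.7 normalised counts at 180d and 0, 3.29 and 4.52 at 1d, a log2 fold change of 3.88 (SE 0.60, adjusted p = 1.49e-05 from edgeR). ARHGAP15, a GTPase-activating protein for Rac, was represented by circRNA_15159 with 7.47, 15.8 and 17.2 at 180d and 0, 4.94 and 0 at 1d (log2 fold change 2.95, SE 0.85, adjusted p = 0.0171). The stages were apart for both, and CD96 had the larger levels. The call of ARHGAP15 did not hold when 1d replicate 1 or 3 or 180d replicate 2 or 3 was left out (adjusted p = 0.055 to 0.09, log2 fold changes 2.36 to 2.83).

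BANK1, which links the B cell receptor to calcium release, had 10.7, 30.9 and 11.2 normalised counts at 180d for circRNA_36034 and 0, 0 and 3.01 at 1d, a log2 fold change of 3.87 (SE 0.80, adjusted p = 0.000618 from edgeR). CD22, an inhibitory receptor of B cells, had 33.1, 30.9 and 48 at 180d for circRNA_30180 and 13.9, 14.8 and 13.6 at 1d (log2 fold change 1.4, SE 0.41, adjusted p = 0.0206). RALGPS2, an exchange factor for Ral GTPases, had 17.1, 29.5 and 6.75 at 180d for circRNA_38282 and 0, 4.94 and 4.52 at 1d (log2 fold change 2.37, SE 0.68, adjusted p = 0.0164). All 3 were higher in every pig of 180d. The fourth, FAM129C circRNA_21131, had 16, 23.7 and 6.75 at 180d and 0, 3.29 and 6.03 at 1d (log2 fold change 2.17, SE 0.71, adjusted p = 0.0381).

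BANK1 kept its call without each library in turn, and the others did not. CD22 lost it without any 1 library of 1d or without 180d replicate 3 (adjusted p = 0.061 to 0.1, log2 fold change 1.17 to 1.46), and RALGPS2 without 1d replicate 1 (1.89, adjusted p = 0.103) or 180d replicate 2 (1.74, adjusted p = 0.169). FAM129C lost it when 1d replicate 1 or 2 or 180d replicate 1 or 2 was left out (adjusted p = 0.0728 to 0.203, log2 fold change 1.68 to 2.17). Of the 4 calls of the B cell list, 1 stood when 1d replicate 1 was left out, and 2 when replicate 2 of either stage was. The list had 2 circRNAs higher and 1 lower with table totals, and 0 higher with 180d replicate 1 as the only library of its stage.

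The largest rise in reads was that of circRNA_24032, on chr3:57235342-57272274 (plus strand), which starts at an exon start of LOC100736878, annotated as an immunoglobulin kappa variable-like segment. It had 750, 866 and 934 normalised counts at 180d and 13.9, 11.5 and 27.1 at 1d, a log2 fold change of 5.56 (SE 0.95, adjusted p = 0.00117 from edgeR). Its mean of 850 ± 92.7 at 180d, against 17.5 ± 8.40 at 1d (SD, n = 3 pigs each), made it the most abundant circRNA of 180d among those named, and the stages lay far apart. Kappa variable segments are near-identical copies that the reads may not tell apart, and whether these reads come from a circular RNA was not tested.

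Macrophage, monocyte and granulocyte host genes had 2 of 17 circRNAs higher (11.8%, against 5.9% of all) and 1 lower (5.88%, against 3.4%). CTSS, whose product cathepsin S cleaves the invariant chain of antigen-presenting cells, had 47.0, 82.7 and 57.0 normalised counts at 180d for circRNA_26897 (exons 3 to 4) and 11.9, 9.88 and 15.1 at 1d, a log2 fold change of 2.33 (SE 0.37, adjusted p = 1.49e-05 from edgeR). LOC100516957, annotated as E2-like of the adhesion G protein-coupled receptors, had 447, 305 and 290 at 180d for circRNA_21182 and 151, 123 and 214 at 1d (log2 fold change 1.09, SE 0.21, adjusted p = 0.000359). CTSV, which encodes another cathepsin, fell, with 4.27, 5.75 and 3.75 at 180d for circRNA_04944 and 17.9, 36.2 and 9.04 at 1d (log2 fold change -2.15, SE 0.56, adjusted p = 0.0067). The 2 cathepsin genes thus moved in opposite directions, each with its stages apart. The call of circRNA_21182 was lost on its size without 1d replicate 2 (log2 fold change 0.93) or 180d replicate 1 (0.87), and that of CTSV without 1d replicate 2 (-1.46, adjusted p = 0.165). With table totals or after thinning, circRNA_21182 also lost its call on size.

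The complement receptor gene CR1 was represented by circRNA_37493 (chr9:68044952-68045673), which lies inside CR1 without joining annotated exon ends on both sides. It had 16, 29.5 and 29.2 normalised counts at 180d and was listed at 0 in every library of 1d, at least 6.57-fold higher in the older pigs (adjusted p = 8.05e-06 from edgeR).

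Host genes of the cell cycle and DNA replication gave the clearest set of falls. Dividing cells use these genes to license replication origins, condense chromosomes and attach them to the spindle. Of 66 circRNAs of 41 genes, 14 fell (21.2%, against 3.4% of all), 0 rose and 61 had a negative log2 fold change, with a median of -1.35 (-1.33 with 1 circRNA at its bound), against 0.20 for all. Their summed normalised counts were 453 to 507 at 180d and 946 to 963 at 1d. The median stayed negative with table totals (-1.59), DESeq2 size factors (-1.42) and clean reads (-0.28).

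Of the replication genes, MCM6 had the ring of exons 2 to 8, circRNA_15205, with 2.13, 2.16 and 4.50 normalised counts at 180d and 13.9, 36.2 and 19.6 at 1d, a log2 fold change of -2.93 (SE 0.58, adjusted p = 0.000339 from edgeR). Exons 2 to 7 gave circRNA_15204, which had 0, 0 and 1.5 at 180d and 11.9, 8.23 and 13.6 at 1d (log2 fold change -4.11, SE 0.99, adjusted p = 0.0034). DTL, the substrate receptor of a ubiquitin ligase that stops origins from firing again, had 7.47, 5.03 and 5.25 at 180d for circRNA_38617 and 37.8, 31.3 and 25.6 at 1d (log2 fold change -2.41, SE 0.42, adjusted p = 4.11e-05). None of the 3 overlapped between stages, and all kept their calls without each library in turn.

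Of the mitosis genes, BUB1, a kinase of the spindle checkpoint, had 0, 0 and 3.0 normalised counts at 180d for circRNA_23829 and 9.95, 11.5 and 12.1 at 1d, a log2 fold change of -3.24 (SE 0.77, adjusted p = 0.00332 from edgeR). KIF11, the kinesin that pushes spindle poles apart, had 3.20, 2.87 and 2.25 at 180d for circRNA_14373 and 11.9, 11.5 and 15.1 at 1d (log2 fold change -2.19, SE 0.61, adjusted p = 0.013). The other falls of the list, with 1 or 2 circRNAs a gene, belonged to the kinetochore and checkpoint genes KNL1 and BUB1B, the cohesin protector SGO1, the condensin genes SMC4 and NCAPG2, HMMR and BARD1. KIF11 lost its call without 1d replicate 3 (-2.01, adjusted p = 0.056) or 180d replicate 3 (-2.06, adjusted p = 0.0505).

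RBL1, a retinoblastoma family protein that represses genes of the cell cycle, was outside that list and among the 12 largest falls. Its circRNA_18987 (exons 9 to 11) had 5.34, 7.19 and 2.25 normalised counts at 180d and 27.9, 29.6 and 28.6 at 1d, a log2 fold change of -2.52 (SE 0.48, adjusted p = 0.00017 from edgeR). The 14 calls of the cell cycle list fell to 6 when 1d replicate 1 was left out, to 7 when 180d replicate 2 was, and to 9 when 1d replicate 2 or either of 180d replicates 1 and 3 was, and 3 stood with 180d replicate 1 alone and 5 with the 6 libraries alone in the fit. With clean reads as the depth, 5 circRNAs of the list were lower and 2 higher.

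The erythroid and haem list had 5 of 16 circRNAs lower (31.2%, against 3.4% of all) and 1 higher, with a median log2 fold change of -1.46 and summed normalised counts of 107 to 147 at 180d and 170 to 224 at 1d. The 5 falls belonged to TFRC (2), EPB41 (2) and SOX6 (1). With the circRNAs of each gene summed, 2 of the 9 host genes of the list were called lower and 0 higher. TFRC, the transferrin receptor through which red cell precursors take up iron, had the ring of exons 1 to 6, circRNA_11324, at 0, 0 and 6.0 at 180d and 37.8, 26.3 and 19.6 at 1d (log2 fold change -3.60, SE 1.00, adjusted p = 0.0285 from edgeR). Its ring of exons 9 to 10, circRNA_11343, had 0, 0 and 2.25 at 180d and 13.9, 9.88 and 7.53 at 1d (log2 fold change -3.49, SE 0.94, adjusted p = 0.00979). SOX6, a transcription factor of red cell maturation in mice, had 0, 1.44 and 1.5 at 180d for circRNA_20897 and 19.9, 19.8 and 19.6 at 1d (log2 fold change -4.05, SE 1.12, adjusted p = 0.0244).

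No library of 180d reached any library of 1d for these 3 circRNAs. EPB41, the protein 4.1 gene of the red cell skeleton, had 0, 3.59 and 3.75 at 180d for circRNA_30915 (exons 2 to 16) and 21.9, 8.23 and 12.1 at 1d (log2 fold change -2.32, SE 0.69, adjusted p = 0.0204 from edgeR), and SNX13, a sorting nexin also in the vesicle traffic list, rose (log2 fold change 1.19, SE 0.29, adjusted p = 0.00444).

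The erythroid calls depended on single libraries. SOX6 lost its call without any 1 of the 6 libraries (log2 fold change -4.36 to -3.65, adjusted p = 0.0523 to 0.0811 from edgeR). TFRC circRNA_11324 lost it when 1d replicate 1 or 2 or 180d replicate 1 or 2 was left out (-3.61 to -2.97, adjusted p = 0.0621 to 0.103), TFRC circRNA_11343 without 180d replicate 2 (-2.89, adjusted p = 0.0678), EPB41 without 1d replicate 1 (-1.89, adjusted p = 0.15) or 180d replicate 1 (-1.88, adjusted p = 0.0861), and SNX13 without 1d replicate 1 (0.98, adjusted p = 0.053) or, on its size, 180d replicate 2 (just under 1). Of the 5 falls, 1 passed when 1d replicate 1 or either of 180d replicates 1 and 2 was left out.

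In the list of fetal growth and progenitor genes, 2 of 3 circRNAs fell (against 3.4% of all), that of SOX6 and circRNA_37799 of IGF2BP3, an RNA-binding protein of fetal tissues. IGF2BP3 had 0, 3.59 and 1.5 normalised counts at 180d and 11.9, 13.2 and 10.5 at 1d, a log2 fold change of -2.59 (SE 0.65, adjusted p = 0.00555 from edgeR). The call of IGF2BP3 held without each library in turn, while that of SOX6 was lost each time.

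Histone methylation genes had 3 circRNAs higher and 6 lower of 71 (8.45% lower, against 3.4% of all), and all 6 falls came from EZH2 and NSD2. Of these 6, 3 stood when 1d replicate 1 was left out, and 4 when 1d replicate 3 or 180d replicate 2 was. EZH2, the catalytic subunit of a Polycomb complex that represses genes and supports dividing lymphocytes, gave 5 circRNAs, of which 3 fell. The ring of exons 2 to 8, circRNA_38090, had 5.34, 3.59 and 3.75 normalised counts at 180d and 27.9, 28.0 and 27.1 at 1d, a log2 fold change of -2.71 (SE 0.46, adjusted p = 2.66e-05 from edgeR). Exons 4 to 8 gave circRNA_38097, which was listed at 0 at 180d and had 11.9, 6.58 and 3.01 at 1d, at least 3.54-fold lower (adjusted p = 0.00955). Exons 2 to 4 gave circRNA_38087, which was listed at 0 at 180d and had 0, 4.94 and 7.53 at 1d, at least 2.36-fold lower (adjusted p = 0.0184), so that its stages overlapped at 0.

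The germinal centre list held EZH2 alone, with the same 3 falls. The call of circRNA_38087 was lost when 1d replicate 3 or either of 180d replicates 2 and 3 was left out (adjusted p = 0.0562 to 0.107), and that of circRNA_38097 without 1d replicate 1 (adjusted p = 0.0556, both from edgeR). NSD2, a methyltransferase of histone H3, had 3 circRNAs and all 3 fell. That of exons 2 to 9, circRNA_34504, had 5.34, 1.44 and 4.50 normalised counts at 180d and 13.9, 39.5 and 33.1 at 1d, a log2 fold change of -2.99 (SE 0.52, adjusted p = 4.11e-05). That of exons 2 to 3, circRNA_34502, had 5.34, 10.1 and 8.25 at 180d and 33.8, 23.0 and 19.6 at 1d (log2 fold change -1.63, SE 0.42, adjusted p = 0.00658, and 0.0574 without 1d replicate 1).

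KDM7A, a histone demethylase, stood on the other side, with 44.8, 64.7 and 61.5 normalised counts at 180d for circRNA_19534 and 17.9, 8.23 and 12.1 at 1d, a log2 fold change of 2.19 (SE 0.40, adjusted p = 0.000124 from edgeR). In the chromatin remodelling list 7 of 165 circRNAs rose (4.24%, below the 5.9% of all) and 2 fell. The 4 called members with the smallest p all rose, with log2 fold changes of 2.18 for CHD2 (SE 0.41, adjusted p = 0.000164 from edgeR), 1.77 for PHC3, a Polycomb protein (SE 0.36, adjusted p = 0.000405), 1.22 for CHD8 (SE 0.26, adjusted p = 0.00103) and 1.21 for circRNA_16048 of TLK1, a kinase of chromatin assembly (SE 0.21, adjusted p = 3.38e-05).

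Actin and myosin genes had 8 of 49 circRNAs higher (16.3%, against 5.9% of all) and 0 lower, with summed normalised counts of 676 to 792 at 180d and 395 to 521 at 1d. Regulators of small GTPases, which share MYO9A and MYO9B with that list, had 15 of 143 higher (10.5%, against 5.9%) and 4 lower (2.8%, against 3.4%). MYO9B, an unconventional myosin, had 29.9, 31.6 and 34.5 normalised counts at 180d for circRNA_21145 and 0, 8.23 and 7.53 at 1d, a log2 fold change of 2.50 (SE 0.52, adjusted p = 0.000621 from edgeR). SCIN, which severs actin filaments, had 11.7, 6.47 and 14.2 at 180d for circRNA_37700 and was listed at 0 at 1d, at least 2.70-fold higher (adjusted p = 0.00199). The 8 calls of the actin list became 5 without 1d replicate 1 or 180d replicate 3 and 0 after thinning, and the 15 of the GTPase list became 9 without 1d replicate 2 and 2 after thinning.

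The remaining lists lay near the shares of all circRNAs or leaned lower. Ubiquitin ligases and deubiquitinases had 12 of 171 higher (7.02%) and 5 lower (2.92%), and RNA splicing and processing had 8 of 182 in each direction (4.4%). Kinases and phosphatases had 7 of 162 higher (4.32%) and 6 lower (3.7%), endocytosis and vesicle traffic 5 of 171 higher and 4 lower, and centrosome and cilium genes 2 of 74 higher and 3 lower. Zinc finger and other transcription factors had 2 of 143 higher (1.4%) and 9 lower (6.29%), and widely conserved circRNA hosts 1 of 94 higher (1.06%) and 5 lower (5.32%). Nuclear pore and transport had 1 of 29 higher, that of RANBP9, and 0 lower.

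In the stromal list 2 of 18 circRNAs fell (against 3.4% of all), both from GLIS3, a transcription factor, and 0 rose. Its exons 4 to 5, circRNA_03546, had 9.61, 7.91 and 9.0 normalised counts at 180d and 33.8, 41.2 and 28.6 at 1d (log2 fold change -1.96, SE 0.40, adjusted p = 0.000557 from edgeR). The other, circRNA_03547, had 18.1, 7.91 and 10.5 at 180d and 55.7, 29.6 and 48.2 at 1d (log2 fold change -1.90, SE 0.54, adjusted p = 0.0234) and lost its call when 1d replicate 1 or 3 or 180d replicate 2 or 3 was left out (-1.82 to -1.66, adjusted p = 0.0701 to 0.108). The megakaryocyte list had 1 of 5 higher (against 5.9% of all), that of VPS13A, and 1 of 5 lower (against 3.4%), that of DNM3. VPS13A circRNA_03716 lost its call when 1d replicate 3 or either of 180d replicates 1 and 3 was left out (0.84 to 1.05, adjusted p = 0.0632 to 0.15), and DNM3 when 1d replicate 2 was (-2.61, adjusted p = 0.066). The fat cell list had 0 of 3 called, and the pancreas acinar list held no circRNA. The 4 defining genes of fat cells and the 5 of pancreas acini had no circRNA in the table. By scaling, the medians of the nuclear pore list (-0.41) and of the transcription factors (-0.11) and of the widely conserved hosts (-0.01) turned positive with clean reads as the depth, those of the megakaryocyte and centrosome lists turned negative with DESeq2 size factors (-0.04 and -0.02), and those of the stromal, megakaryocyte, histone methylation, chromatin, splicing, vesicle, centrosome and kinase lists turned negative with table totals.

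The 12 largest falls also held BTBD7, a BTB domain gene needed for tissue branching in mice, SLC45A4, a solute carrier, and ZRANB1, a deubiquitinase. BTBD7 circRNA_34381 (chr7:114673750-114675741, exons 2 to 3) had 0, 2.16 and 0 normalised counts at 180d and 25.9, 36.2 and 16.6 at 1d, a log2 fold change of -4.82 (SE 0.74, adjusted p = 1.12e-05 from edgeR). SLC45A4 circRNA_25535 (chr4:2484106-2484734), a ring of exon 2 alone, had 5.34, 0 and 0 at 180d and 27.9, 32.9 and 15.1 at 1d (log2 fold change -4.04, SE 0.66, adjusted p = 1.63e-05). ZRANB1 had its exon 2 ring circRNA_14994 (chr14:134281823-134282673) at 0, 2.16 and 3.0 at 180d and 21.9, 24.7 and 19.6 at 1d (log2 fold change -3.47, SE 0.57, adjusted p = 2.03e-05). None of these overlapped between stages, which the rule for the largest falls required.

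TMX1, a transmembrane thioredoxin of the endoplasmic reticulum, had 4.27, 2.16 and 4.50 normalised counts at 180d for circRNA_02977 and 33.8, 34.6 and 13.6 at 1d (log2 fold change -2.88, SE 0.62, adjusted p = 0.00125 from edgeR). DNM3, a dynamin, had 2.13, 3.59 and 3.0 at 180d for circRNA_38142 and 21.9, 28.0 and 16.6 at 1d (log2 fold change -2.84, SE 0.74, adjusted p = 0.0142, and 0.066 without 1d replicate 2). PLCL2, an inactive phospholipase-like protein that restrains B cell receptor signalling in mice, had 4.27, 4.31 and 2.25 at 180d for circRNA_08965 and 19.9, 11.5 and 40.7 at 1d (log2 fold change -2.73, SE 0.60, adjusted p = 0.00134, and 0.0588 without 1d replicate 3). The stages were apart for each, again as the rule for the largest falls required.

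Of the other large rises, MYCBP2, a large ubiquitin ligase, had 16, 22.3 and 30.7 normalised counts at 180d for circRNA_06898 and 5.97, 0 and 4.52 at 1d (log2 fold change 2.74, SE 0.60, adjusted p = 0.00125 from edgeR). LRRK2, a kinase with a GTPase domain that is strongly expressed in myeloid and B cells, had 22.4, 26.6 and 19.5 at 180d for circRNA_28945 and 3.98, 6.58 and 0 at 1d (log2 fold change 2.71, SE 0.62, adjusted p = 0.00208). PAPD4, a cytoplasmic poly(A) polymerase, had 25.6, 22.3 and 20.2 at 180d for circRNA_21767 (chr2:88358554-88372391, exons 11 to 15) and 0, 8.23 and 3.01 at 1d (log2 fold change 2.49, SE 0.61, adjusted p = 0.00439). The stages did not overlap for these, as the rule for the largest rises required. The circRNA of PAPD4 is 1 that the study followed further. The 1 large rise outside any gene was circRNA_12292 (chr13:204825458-204826392), with 21.3, 31.6 and 22.5 at 180d and 3.98, 0 and 4.52 at 1d (log2 fold change 3.11, SE 0.77, adjusted p = 0.00601).

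**Figure D3:**
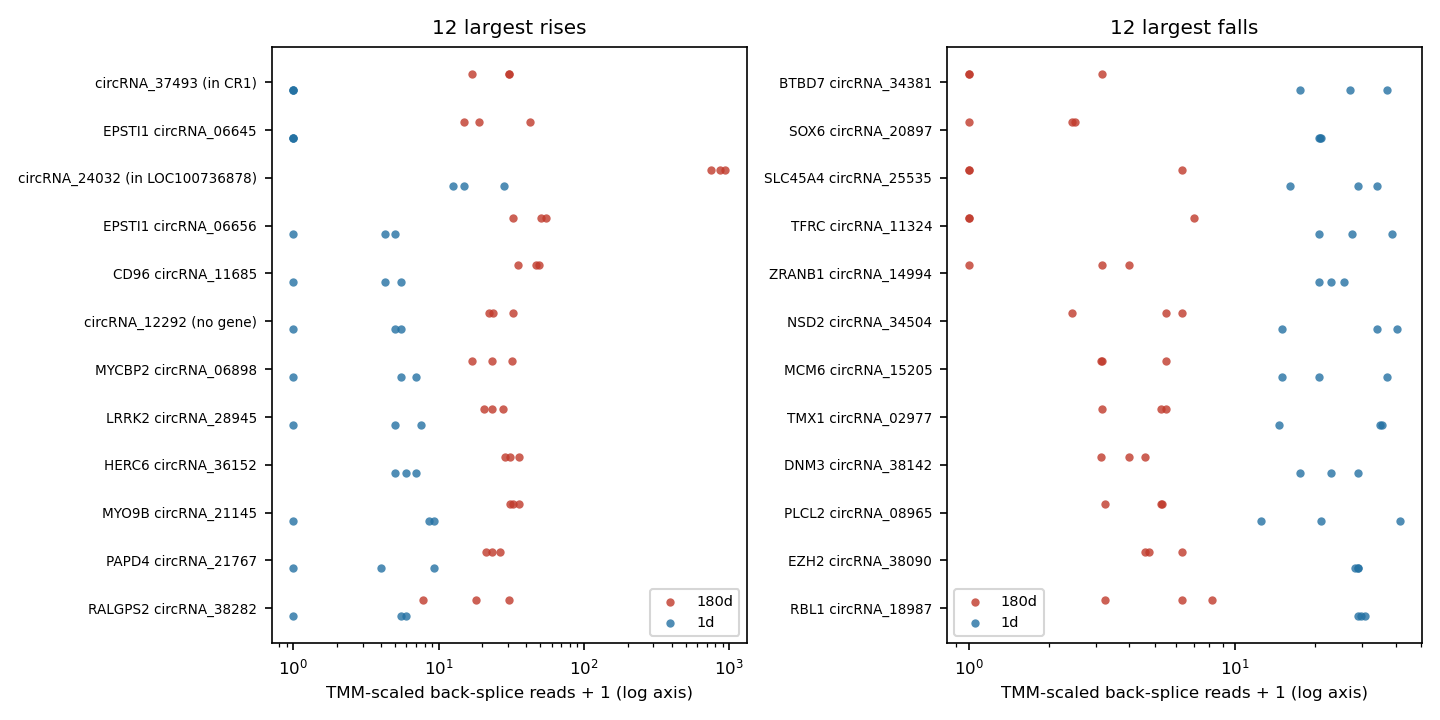
Normalised counts in each library (x axis) of the 12 largest rises and the 12 largest falls (y axis), 1 point per pig, with 180d above 1d. The circRNAs were chosen among those with points of 180d and 1d apart, and range from circRNA_24032 with 750 to 934 at 180d and 11.5 to 27.1 at 1d down to circRNAs near 0 at 1 stage.

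Of these 24 largest changes, 6 kept their call under all 17 alternative settings, 9 lost it only where 180d replicate 1 was the sole library of its stage, and 9 lost it elsewhere. None changed direction.

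Besides circRNA_24032 and circRNA_21182, the 5 most abundant circRNAs were those of SLTM, PHF21A and LOC110255584. SLTM, which encodes an SAFB-like transcription modulator, had 546, 630 and 541 normalised counts at 180d for circRNA_01598 and 185, 298 and 348 at 1d (log2 fold change 1.04, SE 0.18, adjusted p = 2.66e-05 from edgeR). PHF21A, which binds unmethylated histone tails, had 305, 420 and 330 at 180d for circRNA_20634 and 151, 170 and 244 at 1d, and its log2 fold change of 0.90 (SE 0.19, adjusted p = 0.000739) stayed under 2-fold. The non-coding RNA LOC110255584 had 192, 290 and 235 at 180d for circRNA_05253 and 205, 244 and 292 at 1d (log2 fold change -0.05, SE 0.19, adjusted p = 0.915). Of the 5 most abundant, 4 were higher in every pig of 180d, counting circRNA_24032 and circRNA_21182, against 17.9% of all 3000, and LOC110255584 overlapped. The 5 were chosen by their mean over both stages, to which a high level at 180d adds. The call of SLTM sat at the 2-fold limit and was lost on size without 1d replicate 1 (0.83) or 180d replicate 2 (0.97). It was also lost on size with DESeq2 size factors, DESeq2's Wald test, table totals, valid bases as covariate and thinning.

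With the circRNAs of each host gene summed, 136 of 1670 host genes rose (8.14%) and 76 fell (4.55%). At least 1 called circRNA came from 223 host genes, 133 of which had 2 or more circRNAs. In 51 of these another circRNA of the gene had the opposite sign, counting changes of any size, called or not. The same share over host genes without a call was not computed, so this count does not measure disagreement within genes. Where 2 or more circRNAs of a gene were called, in 31 host genes, 16 had all of them higher, 14 had all of them lower, and 1, ZNF644, had both. The genes with 3 called were CCT3, EZH2 and NSD2, all lower, and MYO9A and PRPSAP2, all higher.

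ZNF644, a zinc finger protein that binds the histone methyltransferase G9a, gave 4 circRNAs. The ring of exons 4 to 5, circRNA_27505 (218 nt), had 56.6, 52.5 and 29.2 normalised counts at 180d and 21.9, 18.1 and 9.04 at 1d, a log2 fold change of 1.51 (SE 0.37, adjusted p = 0.00371 from edgeR). Conversely, the ring of exons 6 to 7, circRNA_27510 (3644 nt), had 9.61, 8.62 and 6.0 at 180d and 33.8, 34.6 and 18.1 at 1d (log2 fold change -1.82, SE 0.47, adjusted p = 0.00652). The first was higher and the second lower in every pig of 180d. Of the other rings, that of exons 3 to 5 (208 nt) had a log2 fold change of 0.96 (adjusted p = 0.213) and that of exons 5 to 7 (3705 nt) of -0.90 (adjusted p = 0.31). The exons of circRNA_27505 are numbered on another transcript model than those of the other 3.

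Set against each other, the log2 ratio of circRNA_27505 to circRNA_27510 of ZNF644 (raw counts, pseudocount 1) was 2.43, 2.51 and 2.15 at 180d and -0.58, -0.87 and -0.89 at 1d. This ratio needs no scaling between libraries, and it restates the values for which the pair was chosen. The test of each circRNA against the others of its host gene (edgeR's diffSpliceDGE) put ZNF644 circRNA_27510 past the threshold (adjusted p = 0.0343).

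That test called 3 of 1784 circRNAs (0.168%) in 3 of 612 host genes (0.49%), and 126 had an unadjusted p under 0.05. The second gene was PSPC1, which encodes a paraspeckle protein. Its ring of exons 2 to 3, circRNA_05970, had 6.4, 10.1 and 10.5 normalised counts at 180d and was listed at 0 at 1d, at least 2.35-fold higher (adjusted p = 0.00408 from edgeR, and 0.0343 against the rest of the gene). Its ring of exons 2 to 4, circRNA_05969, which shares the start of exon 2, had 44.8, 47.4 and 63.0 at 180d and 45.8, 52.7 and 36.2 at 1d (log2 fold change 0.22, SE 0.25, adjusted p = 0.655). The stages overlapped for the second ring and not for the first.

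The third gene was WDR7. Its ring of exons 17 to 19, circRNA_01405, had 19.2, 7.19 and 12 normalised counts at 180d and was listed at 0 at 1d, at least 3.04-fold higher (adjusted p = 0.00125 from edgeR, and 0.0421 against the rest of the gene). By comparison, the ring of exons 17 to 20, circRNA_01406, whose junction has the same capitals, had 14.9, 26.6 and 16.5 at 180d and 21.9, 8.23 and 13.6 at 1d (log2 fold change 0.45, SE 0.46, adjusted p = 0.6). Exons 16 to 17 gave circRNA_01403, which had 47.0, 38.8 and 32.2 at 180d and 41.8, 28.0 and 40.7 at 1d (log2 fold change 0.09, SE 0.33, adjusted p = 0.907). Only circRNA_01405 of the 3 had its stages apart.

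These 3 within-gene calls were fragile. Each was lost without any 1 of the 6 libraries (adjusted p = 0.0619 to 0.293 from edgeR's diffSpliceDGE, with 0 or 1 call left and 102 to 135 circRNAs at an unadjusted p under 0.05), and 0 stood when the 6 libraries alone were fitted (91 at an unadjusted p under 0.05). In counts simulated with known changes the within-gene test found 10.4% of circRNAs with a log2 change of 2 and 22.7% of those with 3, and the test between stages 52.2% and 80.3%, so disagreement within genes may have passed unseen at this depth. RSBN1L, PPIP5K2, SNRNP40 and TASP1, next by p and not past this threshold, each had 1 circRNA listed at 0 at 1d that rose (circRNA_37896, circRNA_22023, circRNA_30966 and circRNA_18523). The call of circRNA_22023 held without each library in turn, that of circRNA_37896 was lost without any 1 library but 180d replicate 3 (adjusted p = 0.0521 to 0.0985 from edgeR), that of circRNA_30966 without any 1 of the 1d libraries (0.0576 to 0.0644) and that of circRNA_18523 without any 1 of these or without 180d replicate 2 (0.0559 to 0.172).

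**Figure D4:**
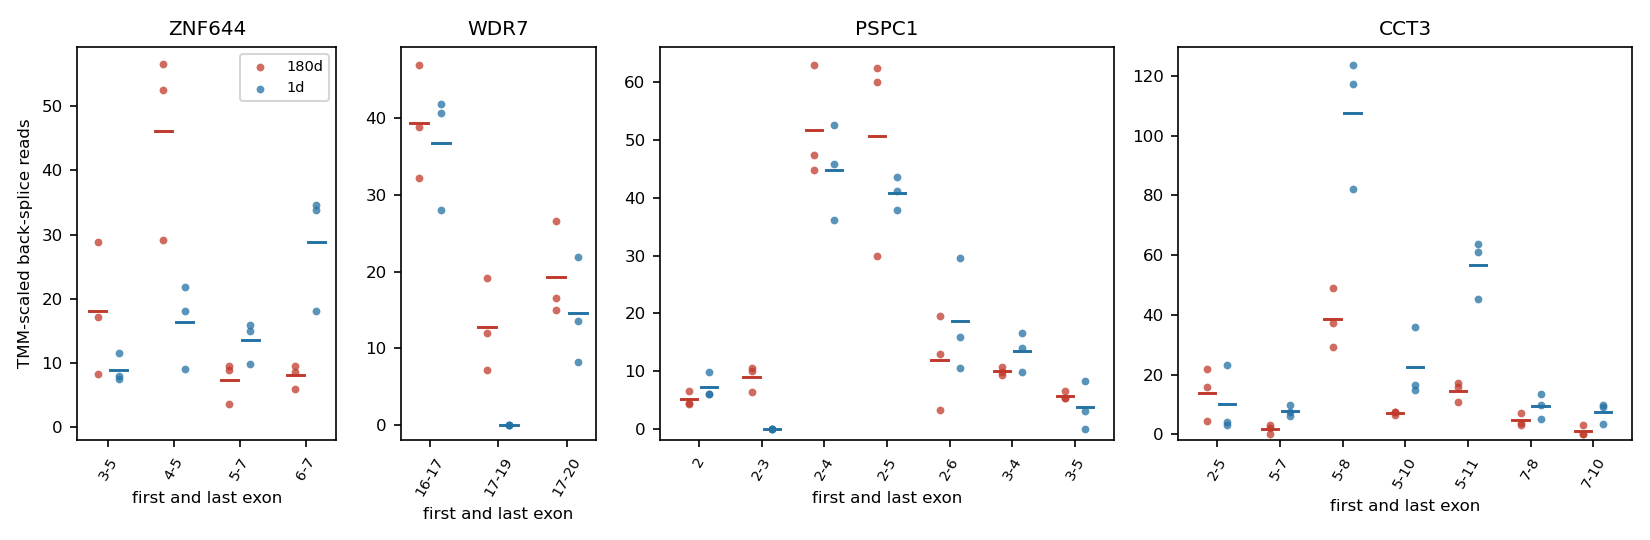
Normalised counts in each library (y axis) of the circRNAs of ZNF644, WDR7, PSPC1 and CCT3, labelled by their exons (x axis), with 180d left of 1d. In ZNF644 exons 4 to 5 are higher and exons 6 to 7 lower at 180d, in WDR7 and PSPC1 1 ring is listed at 0 at 1d while its neighbours overlap, and in CCT3 the 3 called rings are all lower.

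CCT3 gave 7 circRNAs, and the 3 that fell begin at exon 5. Exons 5 to 8 gave circRNA_26742, which had 37.4, 48.9 and 29.2 normalised counts at 180d and 117, 82.3 and 124 at 1d, a log2 fold change of -1.48 (SE 0.23, adjusted p = 1.12e-05 from edgeR). That of exons 5 to 11, circRNA_26745, had 17.1, 10.8 and 15.7 at 180d and 63.7, 60.9 and 45.2 at 1d (log2 fold change -1.96, SE 0.31, adjusted p = 1.12e-05). That of exons 5 to 10, circRNA_26744, had 7.47, 6.47 and 7.50 at 180d and 35.8, 14.8 and 16.6 at 1d (log2 fold change -1.61, SE 0.46, adjusted p = 0.017). These 3 were lower in every pig of 180d, while the ring of exons 2 to 5, circRNA_26734, overlapped, with 4.27, 15.8 and 21.7 at 180d, against 3.98, 23.0 and 3.01 at 1d. The ring of exons 5 to 7, circRNA_26741, was not called. Over the alternative settings its log2 fold change was -2.71 to -1.10. Those of exons 7 to 10 and 7 to 8, also not called, had -6.0 to -1.56 and -5.14 to 0.13. The within-gene test did not call CCT3 (adjusted p = 0.159 from edgeR's diffSpliceDGE). The call of circRNA_26744 was lost without 1d replicate 1 (log2 fold change -1.13, adjusted p = 0.202) or 180d replicate 2 (-1.53, adjusted p = 0.0676).

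MYO9A, another unconventional myosin, had 3 of 5 circRNAs higher. Exons 31 to 33 gave circRNA_02737 (354 nt), which had 41.6, 40.2 and 38.2 normalised counts at 180d and 9.95, 9.88 and 12.1 at 1d, a log2 fold change of 1.89 (SE 0.38, adjusted p = 0.000359 from edgeR). That of exons 31 to 32, circRNA_02742 (306 nt), had 9.61, 9.34 and 8.25 at 180d and was listed at 0 at 1d, at least 2.28-fold higher (adjusted p = 0.00955). The pigs of a stage differed little in both, and the stages were apart. The rings of exons 2 to 8 (circRNA_02772, 1451 nt) and 2 to 5 (circRNA_02774, 1169 nt) of MYO9A, chosen after their values were seen, had log2 fold changes of -0.52 (adjusted p = 0.793) and -0.76 (adjusted p = 0.556). The within-gene test did not call MYO9A (adjusted p = 0.371 from edgeR's diffSpliceDGE).

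PRPSAP2, a partner of phosphoribosyl pyrophosphate synthetase, was chosen after its values were seen and had 3 of 10 circRNAs higher. Its exons 2 to 5, circRNA_08861 (365 nt), had 91.8, 71.2 and 77.2 normalised counts at 180d and 23.9, 18.1 and 18.1 at 1d, a log2 fold change of 2.0 (SE 0.32, adjusted p = 1.5e-05 from edgeR). Its exons 2 to 7, circRNA_08857 (654 nt), had 57.6, 66.8 and 81.7 at 180d and 41.8, 41.2 and 64.8 at 1d (log2 fold change 0.47, adjusted p = 0.243). The stages of the shorter ring were apart and those of the longer ring overlapped. PRPSAP2 was not among the genes that the within-gene test called.

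The circRNAs that rose were short and those that fell were long. The summed length of the annotated exons between both ends, known for 2838 circRNAs, had a median of 318 nt among those that rose, 794.5 nt among those that fell and 436.5 nt among those not called. Over 500 nt were 19 of 160 that rose (11.9%), 70 of 98 that fell (71.4%) and 1062 of 2580 not called (41.2%). In 4 classes by length with 705 to 717 circRNAs each, 11.3% rose and 1.39% fell in the shortest (70 to 322 nt), and 0.566% rose and 8.63% fell in the longest (658 to 4050 nt). The median log2 fold change was 0.68 in the shortest class, then 0.32, 0.15 and -0.45 in the longest.

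The order of the classes was the same in every alternative setting, with medians from 1.79 in the shortest to 0.62 in the longest with clean reads as the depth. Within host genes the shortest circRNA had a higher log2 fold change than the longest in 411 of 610 genes, with a median difference of 0.52, and in 120 of 171 genes where both circRNAs had a mean of at least 10 (0.44). GC content hardly differed, with medians of 43.1% among circRNAs that rose and 44.0% among those that fell. Circular RNAs starting at exon 2 were 28.1% of those that rose, 44.9% of those that fell and 27.6% of the rest. The median length was 416.5 nt in the cell cycle list and 350 nt in the interferon list, against 431 nt for all. These are descriptions across circRNAs, which are not replicates, and library depth and stage moved together.

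**Figure D5:**
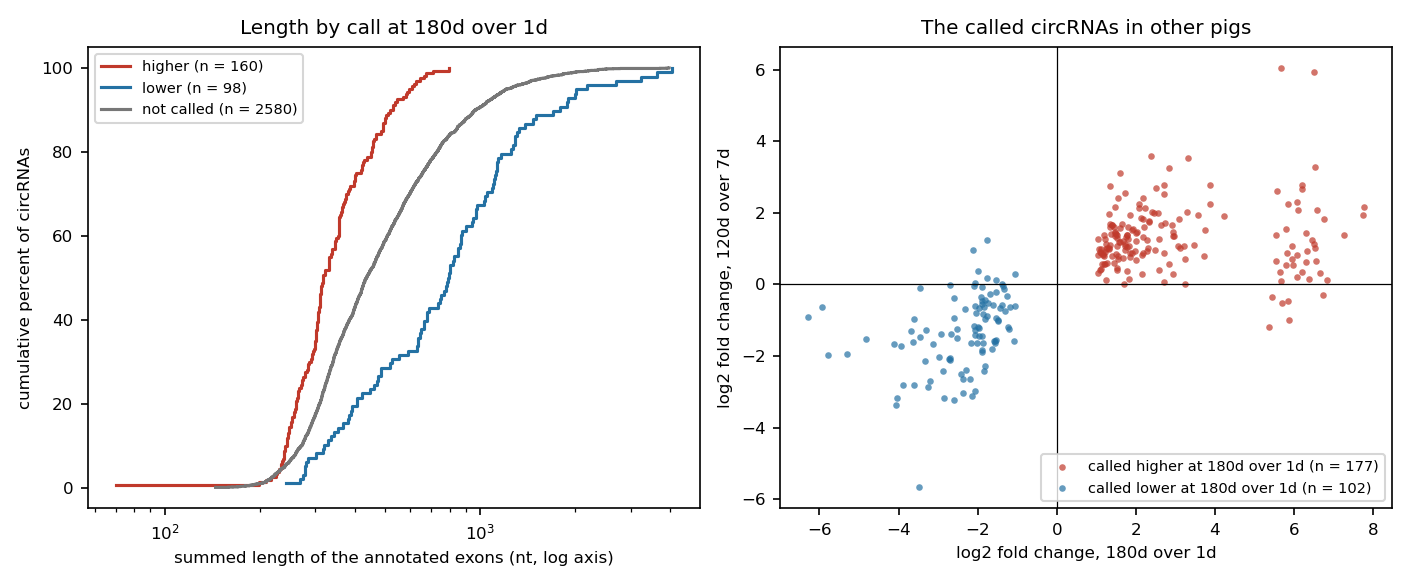
Left, cumulative share of circRNAs (y axis) by summed exon length in nt on a log axis (x axis) for those called higher, called lower and not called, with medians of 318, 794.5 and 436.5 nt. Right, log2 fold change of 120d over 7d (y axis) against that of 180d over 1d (x axis) for the 279 called circRNAs, most of which lie on the same side of 0 in both.

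Other pigs of the series, 3 at 120d and 3 at 7d, give the same kind of contrast without sharing a library with 180d and 1d, although the 1 fit shares its estimate of the spread. Depth and library quality differed here in the same direction. The libraries of 120d held 87867, 71092 and 86551 back-splice reads, and those of 7d held 25283, 19174 and 21349. Replicates 2 and 3 of 120d had a share of valid bases under 0.96, as had those of 180d. The part of depth and quality in what the 2 contrasts share was not tested. At 120d, 191 circRNAs were higher than at 7d (6.37%) and 92 lower (3.07%). Of the 177 circRNAs higher at 180d than at 1d, 63 were also called higher at 120d than at 7d (35.6%), 0 were called lower and 171 were positive, with a median log2 fold change of 1.18. Of the 102 lower at 180d, 44 were also called lower (43.1%), 0 were called higher and 94 were negative, with a median of -1.28, against 0.27 for all 3000.

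Examples picked from the named circRNAs that were called in both contrasts follow, with their log2 fold changes at 120d over 7d. CD96 had 2.78 (adjusted p = 0.000142 from edgeR), CTSS 1.74 (adjusted p = 0.000472), BUB1 -2.87 (adjusted p = 0.000342), DTL -2.50 (adjusted p = 1.12e-06) and TFRC circRNA_11343 -5.66 (adjusted p = 8.33e-06). The cell cycle list had a median of -1.35 at 120d over 7d and the erythroid list of -1.09, while the B and T cell lists had 1.22 and 1.55. The interferon list had 0.77, and of its named members PARP14 passed (adjusted p = 0.00954), whereas HERC6 circRNA_36152 (log2 fold change 1.27, adjusted p = 0.0749) and ZNFX1 (0.73, adjusted p = 0.226) did not. In WDR7 and PSPC1 circRNA_01405 and circRNA_05970 had 1.83 (adjusted p = 0.133) and 0.92 (adjusted p = 0.48), and ZNF644 circRNA_27505 and circRNA_27510 had 0.41 (adjusted p = 0.505) and -0.97 (adjusted p = 0.143). Whether the 2 contrasts differ for any of these was not tested.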

How the data were processed

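Reads were trimmed (FastQC and cutadapt are named) and mapped by the authors to the Sscrofa11.1 build, with BWA as aligner and CIRI2 as the caller of GT-AG back-splice junctions. They deposited 1 table of raw counts of back-splice reads for 3000 circRNAs in 24 libraries, without normalization, and how these 3000 were chosen is not given in the sources used here. Of the 72000 counts 8.72% were 0 and 0 were 1, so a junction read once was listed at 0. The methods describe TRIZOL, RNase R and a NEBNext kit, the labels RNeasy and TruSeq with Ribo-Zero Gold, and this was not settled.

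Under R 4.3.3, counts went through TMM, robust glmQLFit and glmQLFTest of edgeR 4.0.16 (with limma 3.58.1), in 1 fit of all 24 libraries in which each stage had its own coefficient and no covariate entered. The spread between pigs was a biological coefficient of variation of 0.3. To give normalised counts, counts were divided by effective library sizes and multiplied by their geometric mean. Within-gene tests used diffSpliceDGE, and p-values were adjusted by Benjamini-Hochberg over all features of a test. Host genes came from RefSeq exon ends matched within 1 base. On simulated counts for 180d vs 1d the shares found were 4.48% at a log2 change of 1, 52.2% at 2 and 80.3% at 3, and the test called 3 of 2800 unchanged ones, and it called 0 of 3000 where nothing changed. Figures were drawn with matplotlib 3.10.9 and pandas 2.3.3 under Python 3.11.15.

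The members, lists and tests were chosen with earlier results of these data known, and a few genes that a list's name pattern had taken in error were removed after the counts were seen. Named were the 12 largest rises and falls among called circRNAs with a mean of at least 10 and stages apart, the 5 most abundant, up to 4 called members per list by p, host genes called in both directions, the 8 host genes with the smallest within-gene p, and the circRNA of PAPD4. Alternatives were DESeq2 1.42.0 (size factors, Wald test), table totals, clean reads listed by the authors as depth, filterByExpr, the 6 libraries alone, a replicate block, library GC content or valid bases as covariate, libraries with valid bases of at least 0.96, thinning, and leaving out each library.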

Additional observations from a re-analysis of the deposited data

How the results depend on the processing

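Against 177 circRNAs higher and 102 lower at 180d, table totals as the depth gave 109 higher, and 75 host genes higher in place of 136. Clean reads gave 985 higher and 24 lower, 709 host genes higher and 17 lower (76 with TMM), 887 circRNAs shared with 120d vs 7d in place of 107, and 0 within-gene calls in place of 3. The 6 libraries alone gave 63 lower, 49 host genes lower and 0 within-gene calls. Valid bases as covariate left 57 shared. Libraries of at least 0.96, with 1 library of 180d assumed to vary like the other stages, gave 31 higher and 24 lower, 31 host genes higher and 25 lower, 18 shared and 0 within-gene calls. Thinning gave 62 higher, 43 host genes higher, 50 shared and 0 within-gene calls. In these alternatives with 0 within-gene calls by edgeR, 73 to 101 circRNAs had an unadjusted p under 0.05 (126 in the reported fit). The cause of these differences was not tested. DESeq2 size factors (154 and 111), filterByExpr (162 and 107 of 1802), GC as covariate (145 and 96), valid bases as covariate (139 and 88) and the Wald test (153 and 140) stayed within 1.5 times of the main counts.

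Leaving out each library in turn gave 112 to 197 higher and 61 to 92 lower, 0 to 1 within-gene calls (102 to 135 at an unadjusted p under 0.05), 91 to 156 host genes higher and 53 to 74 lower, and 79 to 108 shared. Higher were 112 without 1d replicate 1 and 114 without 180d replicate 2, and lower were 65 without 1d replicate 2 and 61 without 180d replicate 2. Among named circRNAs, circRNA_05253 turned to a log2 fold change of 1.07 with clean reads (adjusted p = 0.00513 from edgeR), and circRNA_37896 to 0 after thinning (adjusted p = 1). Of the 86 named and called, 10 kept the call under all 17 alternatives, 21 lost it only with the libraries of at least 0.96, and 55 in others. Same-numbered pigs of 180d and 1d did not deviate together (correlations 0.018, 0.00755 and -0.00439), so the numbers do not pair them, and a fit with a replicate block had 166 circRNAs higher, 98 lower, 131 host genes higher and 72 lower, 3 within-gene calls stood and 102 were shared. DESeq2 was not run for the within-gene test and 120d vs 7d, and the 6 libraries hold no 120d or 7d. Where 1 stage rests on 0 to 3 reads in each library, depth limits what can be seen.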

Other observations

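Outside the naming rule and chosen after its values were seen, circRNA_30386 (chr6:56457307-56554190) joins exon ends of the neighbouring genes LOC100626505 and LOC100626318, cationic amino acid transporter 3-like. It had 4.27, 5.03 and 12 normalised counts in 180d pigs and 209, 268 and 225 in 1d pigs, yet was not called (log2 fold change -4.98, SE 2.13, adjusted p = 0.166 from edgeR). Its raw counts ran from 0 to 428 over the 24 libraries. These were 4, 7 and 16 reads in the 180d pigs and 105, 163 and 149 in the 1d pigs. From 7d to 35d each stage held a library at 0 and at least 1 above 100. The 7d pigs had 0, 239 and 262 reads. The 14d pigs had 0, 302 and 47, and the 21d pigs had 428, 0 and 139. The 28d pigs had 7, 0 and 156, the 35d pigs had 129, 54 and 0, and the 120d pigs had 7, 11 and 14. It was listed at 0 in 5 libraries, and of the 131 circRNAs with a mean count of at least 50 it was the 1 with 4 or more such libraries.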
